A study of Bos taurus with 40 samples.

Results

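Day 18 conceptuses from a pair of somatic cell nuclear transfer (SCNT) groups were compared, SCNT Med with SCNT Low. The members were chosen by the donor line in the sample labels. SCNT Med is the 10 conceptuses of line 7711 and SCNT Low the 10 of line 0029, so that 20 of the 40 arrays analysed here were used. The remaining 20 arrays are those of 10 conceptuses from embryos produced in vitro (IVP) and 10 of the SCNT High group, from donor line 5538. They give reference levels and enter 1 alternative fit with all 4 groups.

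In SCNT, the nucleus of a somatic cell is placed in an enucleated oocyte, whose cytoplasm must reset the donor genome before development can start. A bovine conceptus elongates before it implants, from a small sphere to a long filament, and this growth takes place in the extra-embryonic tissues. These are the trophoblast, which forms the outer epithelium, secretes the signal that maintains pregnancy and later gives the fetal side of the placenta, and the endoderm that lines it and lays down extracellular matrix. The study related loss at implantation more closely to embryonic abnormalities, or to severe discordance between embryonic and extra-embryonic development, than to defects of elongation.

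The donor cells of both groups were fibroblasts from the ear skin of Holstein heifers. Med and Low rank the lines by calving success. The blastocyst and implantation rates that the study gives were no lower for Low than for Med. Each group came from 1 donor line and therefore 1 animal, so the donor animal, its cell line and the group cannot be told apart. All SCNT conceptuses were female. Reconstructed embryos were grown in vitro on Vero cells, a monkey kidney line, and several blastocysts were transferred to each recipient cow. The embryonic disc was dissected away, and RNA of the remaining extra-embryonic tissue was amplified and labelled with a radioactive isotope. Each conceptus was then hybridised alone to a nylon membrane spotted with bovine cDNA. The labels give neither the recipient nor the length or stage of each conceptus, and their part in the results was not tested. In the study's classes, more SCNT Med than SCNT Low conceptuses were delayed or abnormal in elongation, and fewer had an abnormal or absent disc. The p-values below measure the spread between these conceptuses, some of which may have shared a recipient.

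Each array held 10184 cDNA probes. The level of a probe is the log2 of its spot signal minus the mean of the cDNA probes of the same array, so 0 is the mean spot of that array. Levels are compared between arrays for 1 probe, not between probes, except against control spots. The median signal of an array lay 5.06 to 8.99 times over its local background. Between 7735 and 9907 of its cDNA spots were brighter than the spot of water. The arrays were quantified in 3 sessions, with 7 SCNT Med and 3 SCNT Low arrays in session 1 and 3 SCNT Med and 5 SCNT Low arrays in session 2. Session 3 held 2 SCNT Low arrays and no SCNT Med array, and only there did the quantification software mark cDNA spots as poor, at most 2823 on an array. An array stood apart in each group, BC30 in SCNT Med and BC250 in SCNT Low. Both belonged to session 2, and each was the other's nearest array by correlation despite the different donor line. Results are therefore also given without these arrays where they moved by over 1.5 times or took another sign.

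The label of the tissue could be checked only in part, since gene names were tied to 16 probes. FN1 and APLP2, described in the study as endodermal in these tissues, and PLIN2, described as trophoblastic, were brighter than water on all 10 SCNT Med and all 10 SCNT Low arrays. The mean of 3 control spots of plant genes was also brighter than water on all 10 arrays of each group. Its level averaged -0.74 in SCNT Med and -0.79 in SCNT Low, so being brighter than water does not show that a transcript was present. FN1 and APLP2 averaged above this in both groups (APLP2 at -0.29 in SCNT Low), as did PLIN2 in SCNT Med (0.09). PLIN2 in SCNT Low, at a mean of -0.74, lay close to it. Of the marker lists, 2 of 25 genes for endoderm and 1 of 32 for trophoblast had a named probe. None of the 16 mesoderm or 10 blood and maternal cell markers had one, so a contribution of those cells was not tested.

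Across the whole array, no probe separated the donor lines after adjustment for multiple testing. With limma, 0 of 10184 probes (0.0%) had a Benjamini-Hochberg adjusted p under 0.10, and the smallest adjusted p was 0.833. 436 probes (4.28%) had an unadjusted p under 0.05, where 509 would if no probe differed. Of these, 247 (2.43%) were higher and 189 (1.86%) lower in SCNT Med. A model with a variance for each group called 0 probes as well, with 465 at an unadjusted p under 0.05. No probe had groups that did not overlap.

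**Figure D1:**
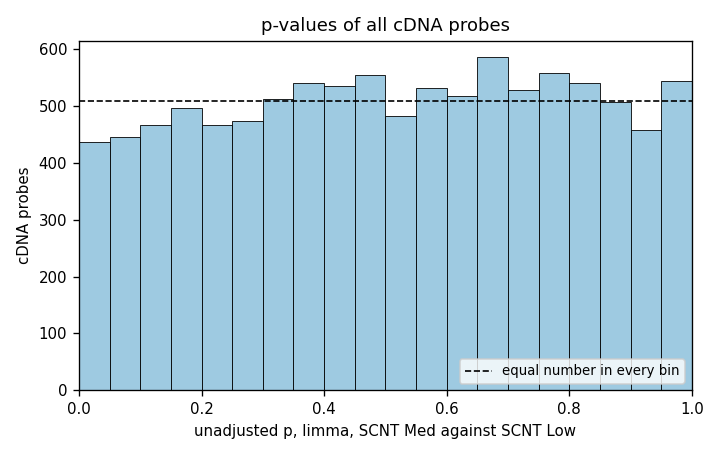
Number of cDNA probes (vertical axis) by unadjusted limma p (horizontal axis, 20 equal bins) for SCNT Med against SCNT Low. The lowest bin holds 436 probes, under the dashed line of 509 that an even spread would give.

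The absence of calls has to be read with the precision of 10 arrays per group. The median SD of a probe within a group was 0.52 log2 units and the median standard error of a difference was 0.23. The 95% interval of a difference lay wholly within 1 log2 unit of 0 for 8881 probes (87.2%). For these, a change of 1 log2 unit in measured signal lay outside the interval in either direction. The signal was not background-subtracted, and the plant gene spots were brighter than water. For dim probes the interval therefore does not bound the change in RNA. For the median probe the interval reached 0.47 to each side of the difference, which is 1.39-fold. Only 33 probes had a measured difference over 1 log2 unit, 28 of them higher and 5 lower in SCNT Med.

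A single probe passed an adjusted p of 0.10 in some other fits of the same values. BF043585, which stood 1.25 log2 units lower in SCNT Med (SE 0.24), had an adjusted p of 0.0461 when all 4 groups shared 1 limma model. AW463538, 1.47 higher (SE 0.26), had an adjusted p of 0.0797 in limma with array weights, which gave BC250 and BC30 the lowest weights. With the session as a block beside the weights its adjusted p was 0.196, so that call was lost. Neither passed in the fit of the 20 unweighted arrays. Without BC30 and BC250 no probe passed and 628 had an unadjusted p under 0.05, while 675 had one without BC250 alone.

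FN1 encodes fibronectin, a large glycoprotein of the extracellular matrix to which integrins bind. FN1 and APLP2 serve here as the endodermal genes and PLIN2 as the trophoblastic one. The study designed a QPCR primer pair for each, and these are printed 5′ to 3′ since they identify the transcript that each gene name stands for.
FN1 forward: gcgattgtctgattctggctt
FN1 reverse: tctccctgacgatcccactt
APLP2 forward: agcttttgcgcttcagcatc
APLP2 reverse: agctacggtgagtcaatggca
PLIN2 forward: ggtgaccgagtctgagagtgc
PLIN2 reverse: gcaggtgtcagctcaagagga
The study chose the 8 morphology genes and 6 chromatin and DNA repair genes among the 16 by their rank in its own comparisons, which used these same arrays, and no basis is given for C5orf13 and PGAM5. Their differences are not independent evidence, and their ranks below are descriptions. The study's QPCR did not reproduce array differences of BIN3, CCNE1, LHFPL2 and MSH3, each found between another pair of groups. It reproduced those of other genes.

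The FN1 probe (AW465534) had levels from 1.13 to 4.54 with a median of 2.79 on the SCNT Med arrays. On the SCNT Low arrays it lay between 0.81 and 1.88 with a median of 1.41. The groups overlapped, but 8 of 10 SCNT Med arrays were above every SCNT Low array. Of all 10184 probes, 12 (0.118%) had at least 8 such arrays. The exceptions were BC192, the lowest SCNT Med array at 1.13, and 1 further array. The mean was 2.69 ± 1.03 (SD, n = 10) in SCNT Med and 1.38 ± 0.39 (SD, n = 10) in SCNT Low, a difference of 1.31 (SE 0.32, 95% interval 0.65 to 1.98), or 2.48-fold. It had rank 5 of all probes by p, with a limma adjusted p of 0.901, and so did not pass the threshold. More endodermal cells and more fibronectin RNA per cell cannot be told apart in whole tissue.

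The FN1 difference was of like size in both sessions that held both lines. In session 1, 6 of 7 SCNT Med arrays were above all 3 SCNT Low arrays, with a difference of 1.31 (SE 0.53). In session 2, 2 of 3 were above all 5 SCNT Low arrays, with a difference of 1.23 (SE 0.51). The SCNT Low arrays of session 3 stood at 0.96 and 1.88, the latter the highest of its group. Leaving out any 1 array gave differences from 1.11, without BC158, to 1.49, without BC192. All 36 alternative fits had FN1 higher in SCNT Med, the smallest difference being 0.96 with array weights and the session as a block. Without BC30 and BC250 the difference was 1.17. As reference levels, FN1 had a median of 1.94 in IVP conceptuses (1.24 to 2.63) and of 1.71 in SCNT High (-1.29 to 2.38), both between the medians of SCNT Low and SCNT Med.

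APLP2 encodes a membrane protein of the amyloid precursor family, whose members act in cell adhesion. Its probe (BF046406) lay between -0.30 and 1.22 in SCNT Med, with a median of 0.48, and between -0.78 and 0.16 in SCNT Low, with a median of -0.29. 6 of 10 SCNT Med arrays were above every SCNT Low array, and 80 of all probes (0.786%) had at least 6. The mean difference was 0.77 (SE 0.20, 95% interval 0.36 to 1.18), or 1.71-fold, with a limma adjusted p of 0.942. The difference was 0.50 in session 1 and 1.14 in session 2.

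PLIN2 encodes perilipin 2, which coats lipid droplets, and trophoblast cells of the elongating conceptus store lipid in such droplets. Its probe (BF043749) lay between -0.44 and 1.43 in SCNT Med, with a median of 0.13, and between -1.53 and -0.09 in SCNT Low, with a median of -0.57. 6 of 10 SCNT Med arrays were above every SCNT Low array, as were all 7 within session 1 and 2 of 3 within session 2. BC192 was far above the other SCNT Med arrays, of which the next stood at 0.27. The mean difference was 0.83 (SE 0.22, 95% interval 0.369 to 1.299), or 1.78-fold, with a limma adjusted p of 0.942. It was 0.69 without BC192, and 0.48 after normexp background correction.

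Thus the endodermal and the trophoblastic genes were measured on the same side, higher in SCNT Med. The most extreme conceptuses were not the same, since BC192 had the highest PLIN2 and the lowest FN1 of its group. Values were therefore compared across the 20 arrays after the mean of each group had been removed. FN1 and APLP2 varied together, with Pearson r = 0.74 (permutation p = 7e-05, adjusted p = 0.00021 over 3 pairs) and Spearman rho = 0.72 (permutation p = 0.00047, adjusted p = 0.00141). Without the 2 arrays farthest from the FN1 median r was 0.77, and it was 0.81 when session means were removed too. Within the groups r was 0.81 in SCNT Med and 0.39 in SCNT Low, and the difference between these was not tested. The permutations moved values freely over the 20 arrays, although both genes had a larger SD in SCNT Med, so their p may be too small.

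FN1 and PLIN2 had r = -0.45 (permutation p = 0.0458, adjusted p = 0.0688) and rho = -0.29 (permutation p = 0.212, adjusted p = 0.318), neither with an adjusted p under 0.05, the level used for tests of single values. Without the 2 arrays farthest from the FN1 median r was -0.19, so this relation rested on those conceptuses. APLP2 and PLIN2 had r = -0.12 (permutation p = 0.61, adjusted p = 0.61) and rho = -0.10 (permutation p = 0.663, adjusted p = 0.663). Without the 2 arrays farthest from the APLP2 median their r was -0.06. The 2 genes described as endodermal thus covaried between conceptuses, and over both groups together PLIN2 did not detectably follow either.

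**Figure D2:**
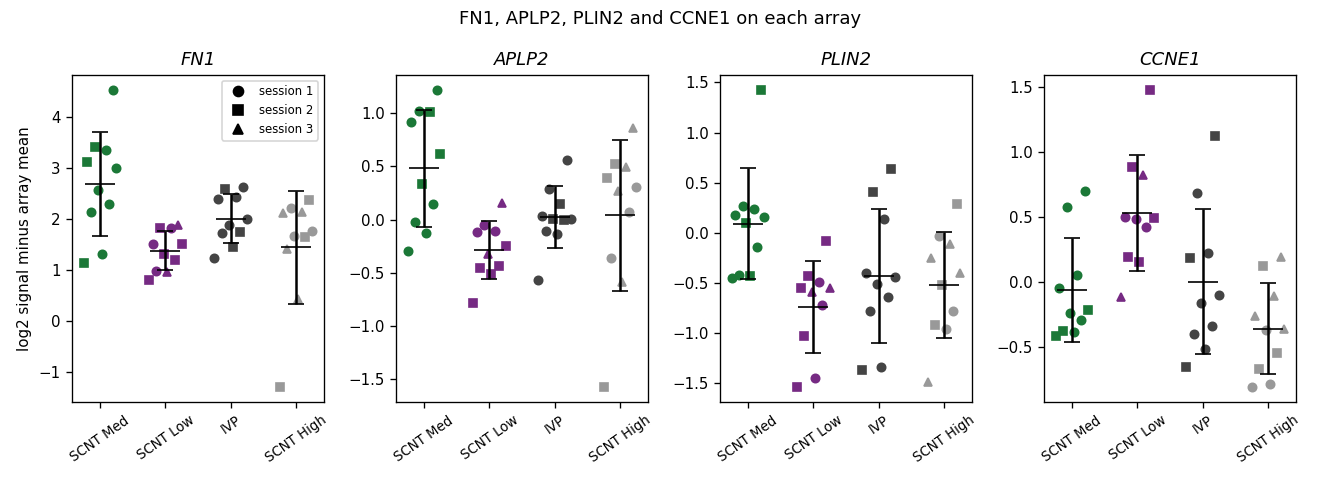
Level on each array (log2 signal minus the array mean, vertical axis) of FN1, APLP2, PLIN2 and CCNE1 in SCNT Med, SCNT Low, IVP and SCNT High, 10 arrays each. Marker shapes give the session, horizontal bars the mean and vertical bars 1 SD. For FN1, 8 of the 10 SCNT Med arrays lie above all SCNT Low arrays, and for CCNE1 the mean of SCNT Low is the highest of the 4 groups.

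Of the 16 named genes, 0 were called, with a smallest adjusted p of 0.901. 12 were measured higher and 4 lower in SCNT Med, with a median difference of 0.52, where 47.6% of all probes were higher and the median of all probes was -0.01. 8 of the 16 had an unadjusted p under 0.05, 7 of them higher in SCNT Med, against the 4.28% of all probes. As most of these genes were chosen for differences among these arrays, nothing is read from that excess.

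Among the 8 genes that the study groups under cellular morphology, 4 had an unadjusted p under 0.05. Beside FN1, APLP2 and PLIN2 this was CCNE1, cyclin E1, which drives entry into S phase. It was the only 1 of the 4 measured lower in SCNT Med. CCNE1 lay between -0.42 and 0.70 in SCNT Med, with a median of -0.23, and between -0.12 and 1.48 in SCNT Low, with a median of 0.49. 6 of 10 SCNT Med arrays were below every SCNT Low array, and 44 of all probes (0.432%) had at least 6 below. The difference was -0.60 (SE 0.20, 95% interval -1.005 to -0.190), with a limma adjusted p of 0.997, and it was -0.42 in session 1, -0.98 in session 2 and -0.45 without BC30 and BC250.

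The other four morphology genes had no unadjusted p under 0.05. WNT5B, a Wnt ligand of the non-canonical branch, differed by 0.49 (SE 0.55), with SCNT Med levels from 0.28 to 4.05 and SCNT Low levels from -2.12 to 2.59. MYO6, a myosin that moves towards the minus end of actin filaments and is found at the base of microvilli, differed by 0.26 (SE 0.25). ALG5, an enzyme of the endoplasmic reticulum that prepares glucose for protein glycosylation, differed by -0.21 (SE 0.25). LHFPL2, a membrane protein with several transmembrane segments, differed by 0.01 (SE 0.17), but its spot was brighter than water on only 2 of 10 arrays in each group. Single arrays moved these values. WNT5B was 0.09 without BC202 and 0.29 without BC30 and BC250, MYO6 was 0.13 without BC2U41, and ALG5 was -0.08 without BC158 and -0.35 without BC250. LHFPL2 was 0.03 without BC30 and BC250 and took either sign when single arrays were left out. MYO6, ALG5 and LHFPL2 had 95% intervals wholly within 1 log2 unit of 0, and WNT5B did not (-0.65 to 1.63).

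**Figure D3:**
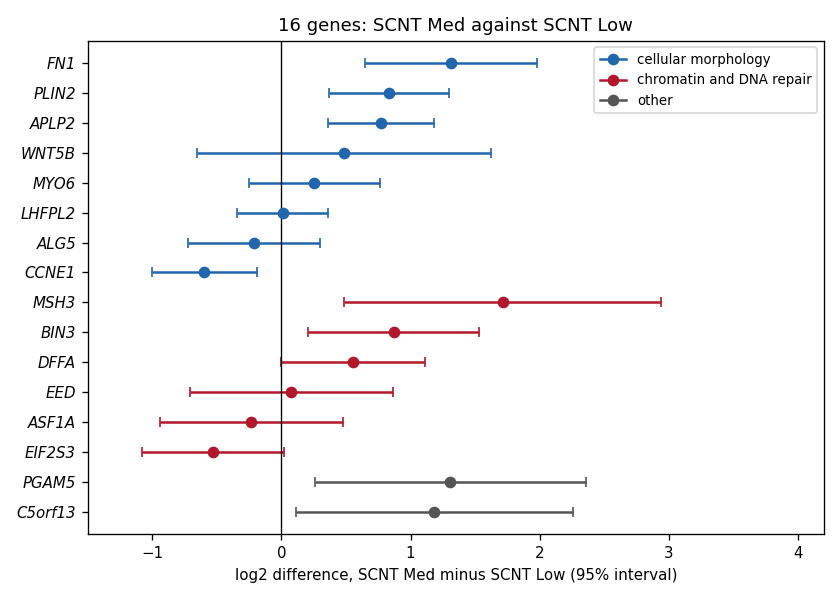
Difference between the group means (SCNT Med minus SCNT Low, log2 units, horizontal axis) of the 16 named genes with 95% intervals from limma, 10 arrays per group, coloured by gene group. The intervals of 8 genes exclude 0, with CCNE1 the only 1 of them below it, and none of the 16 passed an adjusted p of 0.10.

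Of the 6 genes that the study places with chromatin and DNA repair, MSH3 and BIN3 had an unadjusted p under 0.05. MSH3 is a mismatch repair protein that recognises insertion and deletion loops. Its probe (CR552847) ranged from -0.15 to 6.01 in SCNT Med, with a median of 3.17, and lay between -0.96 and 2.08 in SCNT Low, with a median of 1.02. 6 of 10 SCNT Med arrays were above every SCNT Low array. The difference was 1.71 (SE 0.59, 95% interval 0.48 to 2.94), the largest of the 16 genes and the least precise, with a limma adjusted p of 0.997. It was 1.17 in session 1 and 2.88 in session 2.

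BIN3, a BAR domain protein linked to the actin cytoskeleton, lay between 1.91 and 5.06 in SCNT Med and between 1.76 and 2.93 in SCNT Low. 5 of 10 SCNT Med arrays were above every SCNT Low array, where 189 of all probes (1.86%) had at least 5. The difference was 0.87 (SE 0.32, adjusted p = 0.997 by limma). DFFA, the inhibitor of the nuclease that cuts DNA during apoptosis, differed by 0.55 (SE 0.27). EIF2S3, a subunit of the factor that brings the initiator tRNA to the ribosome, differed by -0.53 (SE 0.27), but by 0.08 in session 1. DFFA was 0.36 without BC122. It was brighter than water on 7 of 10 arrays in each group, and EIF2S3 on 6 SCNT Med and 8 SCNT Low arrays.

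EED and ASF1A act on histones, EED as a core subunit of Polycomb repressive complex 2 and ASF1A as a chaperone of histones H3 and H4. EED differed by 0.07 (SE 0.38) and ASF1A by -0.23 (SE 0.34). Their 95% intervals were -0.71 to 0.86 and -0.94 to 0.47. EED took the opposite sign without BC30 and BC250 (-0.10) and with the session as a block (-0.12), and ASF1A did so in session 2 alone (0.53). EED was 0.35 without BC192. ASF1A was -0.09 without BC122, -0.45 without BC30 and -0.39 without BC30 and BC250.

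The remaining named genes were C5orf13, now called NREP, and PGAM5, a mitochondrial phosphatase. C5orf13 lay between 0.70 and 5.54 in SCNT Med, with a median of 3.32, and between 0.28 and 2.98 in SCNT Low, with a median of 2.12. Its difference was 1.19 (SE 0.52). PGAM5 lay between 0.45 and 5.49 in SCNT Med, with a median of 2.81, and between 0.41 and 2.70 in SCNT Low, with a median of 1.57. Its difference was 1.31 (SE 0.51), and for each gene 5 of 10 SCNT Med arrays were above every SCNT Low array. Both had a limma adjusted p of 0.997.

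The spread among conceptuses was compared gene by gene. The SD over arrays was at least 2 times larger in SCNT Med than in SCNT Low for 6 of the 16 genes, and at least 2 times larger in SCNT Low for 0. Over all probes the shares were 4.56% and 4.19%. The 6 genes were FN1 (SD ratio 2.63), APLP2 (2.02), BIN3 (3.07), PGAM5 (2.48), MSH3 (2.38) and C5orf13 (2.29). As the highest values among SCNT Med arrays raise both the mean and the SD, these ratios are not separate from the differences above. As reference levels, MSH3 had medians of 2.46 in SCNT High and 2.10 in IVP, and PGAM5 of 3.10 and 2.62. BIN3 had 3.37 and 2.98, and C5orf13 3.37 and 2.91. All of these lay above the SCNT Low medians. The SD of these genes in IVP lay between those of SCNT Low and SCNT Med, at 0.73 (BIN3) to 1.42 (C5orf13). In SCNT High it was 0.36 (BIN3) to 0.67 (MSH3).

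In SCNT Med, BIN3, C5orf13, PGAM5 and MSH3 were each highest in BC158, at 5.06, 5.54, 5.49 and 6.01. C5orf13, PGAM5 and MSH3 were each lowest in BC122, at 0.70, 0.45 and -0.15. This was noticed in the values, so the correlations that follow, with group means removed and over 20 arrays, describe it without a test. Among the 6 pairs of these genes, r was 0.53 to 0.92 and Spearman rho 0.49 to 0.91. Without the 2 arrays farthest from the median of the alphabetically first gene of each pair, r was 0.39 to 0.90.

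Within the groups r was 0.70 to 0.97 in SCNT Med and -0.45 to 0.67 in SCNT Low, and the difference between these was not tested. For FN1 with the 4 genes, r was -0.07 to 0.21 and rho -0.33 to 0.13. Without the 2 arrays farthest from the FN1 median, r was -0.49 to 0.02. BC158 was nevertheless also the highest SCNT Med array for FN1 and APLP2. Without BC158 the differences were 1.35 for MSH3, 1.03 for PGAM5, 0.91 for C5orf13 and 0.66 for BIN3, all still higher in SCNT Med.

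**Figure D4:**
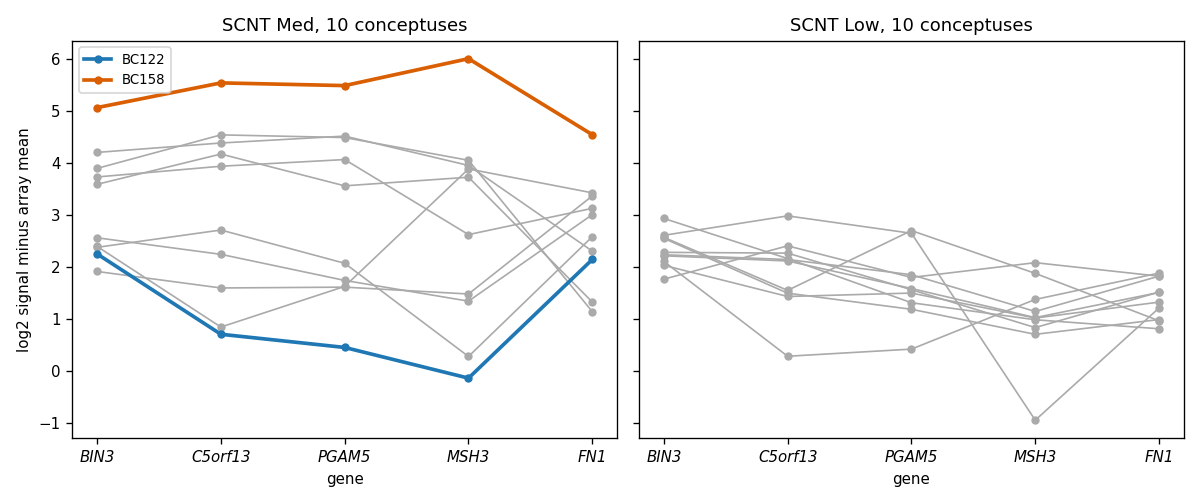
Level (log2 signal minus the array mean, vertical axis) of BIN3, C5orf13, PGAM5, MSH3 and FN1 in each conceptus, 1 line per conceptus, SCNT Med on the left and SCNT Low on the right. SCNT Med conceptuses run roughly in parallel over BIN3, C5orf13 and PGAM5 from BC158 at the top to BC122 near the bottom. At MSH3 some lines cross, with BC30 rising to 3.88 and BC107 falling to 0.27, and FN1 follows another order.

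The 10 probes with the smallest p, 5 on each side, were listed among those brighter than water in at least 1 group. FN1 is among the 5 higher in SCNT Med. These probes were picked by their p, so what follows describes them without a test, and no gene name was tied to those other than FN1. AW463538 had a median of 0.29 in SCNT Med (-0.96 to 2.36) and of -1.07 in SCNT Low (-1.80 to -0.51), and 8 of 10 SCNT Med arrays were above every SCNT Low array. Its SCNT Low median lay under the mean level of the plant gene spots in that group, -0.79. BF045704 had medians of 1.88 and 0.89, CN433933 of 2.65 and 1.88, and CR551469 of 0.05 and -0.47, with differences of 1.22 (SE 0.29), 0.92 (SE 0.22) and 0.59 (SE 0.15). All 4 were also higher in SCNT Med in sessions 1 and 2 taken alone.

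Of the probes lower in SCNT Med, BF043585 had a median of -0.91 in SCNT Med (-1.86 to -0.26) and of 0.31 in SCNT Low (-1.004 to 1.499). 8 of 10 SCNT Low arrays were above every SCNT Med array, and 2 of all probes (0.0196%) had at least 8. In the other direction, 4 of 10 SCNT Med arrays were below every SCNT Low array. The difference was -0.87 in session 1 and -1.55 in session 2. BF043254 and BF044981 differed by -0.74 (SE 0.18) and -0.62 (SE 0.17), and for each 7 SCNT Low arrays were above every SCNT Med array, where 18 of all probes (0.177%) had at least 7. The SCNT Med medians of BF043585, BF043254 and BF044981 (-0.91, -1.10 and -1.16) lay under the mean level of the plant gene spots there, -0.74. BF046610 was brighter than water on 1 SCNT Med and 7 SCNT Low arrays, with medians of -2.41 and -1.73. BF046158 was brighter than water on 0 SCNT Med and 4 SCNT Low arrays, so its level in SCNT Med is only a bound and no fold is given.

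As whole profiles, the means of the lines lay at about the distance that permuted labels gave. The root mean square difference between the mean profiles was 0.26 log2 units over the 10184 probes, and permuted labels gave 0.27 on average (one-sided permutation p = 0.495, 20 arrays). Permuting the labels only within sessions gave p = 0.601 by exact enumeration, and without BC30 and BC250 the distance was 0.26. Of the 20 arrays, 14 had their nearest array in the same session and 12 in the same line, the latter being 5 from SCNT Med and 7 from SCNT Low. The counts that shuffled labels would give were not computed. Sessions were of unequal size, so these counts are not directly comparable. The median correlation of an SCNT Med array was 0.895 with its own group and 0.899 with SCNT Low, and that of an SCNT Low array 0.907 with its own group and 0.904 with SCNT Med.

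The scatter of conceptuses within a line was then compared. Each array was set against the mean of the remaining 9 arrays in its group. The root mean square distance averaged 0.63 ± 0.17 (SD, n = 10) in SCNT Med and 0.60 ± 0.21 (SD, n = 10) in SCNT Low. The difference of 0.02 was smaller than the spread between arrays (two-sided permutation p = 0.772). BC30, at 1.06, and BC250, at 1.13, were the farthest of their groups, and the next stood at 0.68 and 0.79.

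**Figure D5:**
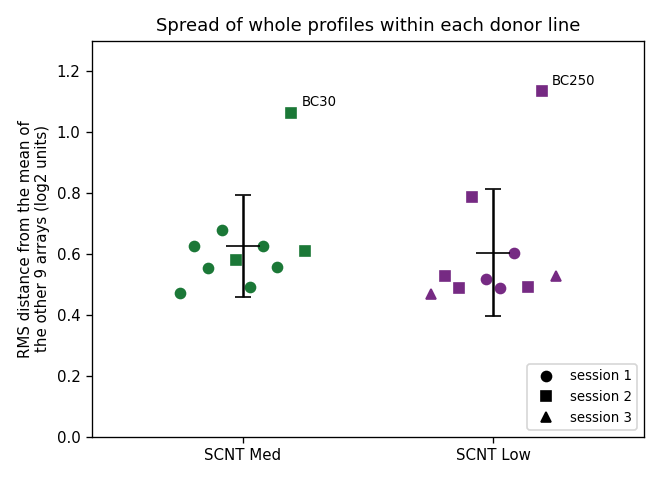
Root mean square distance (log2 units, vertical axis) between each array and the mean of the remaining 9 in its group, for SCNT Med and SCNT Low, 10 arrays each. Marker shapes give the session, horizontal bars the mean and vertical bars 1 SD, and BC30 and BC250 lie at 1.06 and 1.13 above the other arrays.

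Housekeeping genes were spotted as controls, with 10 spots each on every array. GAPDH, a glycolytic enzyme, lay between 1.74 and 3.48 in SCNT Med, with a median of 2.44, and between 2.66 and 4.66 in SCNT Low, with a median of 3.08. The difference was -0.62 (two-sided permutation p = 0.0286, adjusted p = 0.0573 over the 2 genes), which is not under 0.05. The adjusted p lay between 0.0205 and 0.115 by exact permutation when single arrays were left out, under 0.05 without BC180, BC183, BC2U41, BC250, BC268 or BC271. It was -0.67 in session 1, -0.73 in session 2 and -0.63 without BC30 and BC250. Actin, of the cytoskeleton, had medians of 2.90 and 2.85 and a difference of 0.00 (two-sided permutation p = 0.987, adjusted p = 0.987). The spot of POU5F1, a pluripotency gene that was added to the named genes after its values were seen, had medians of -0.11 and 0.00, with a difference of -0.10 (two-sided permutation p = 0.615). The mean of the plant gene spots differed by 0.05 (two-sided permutation p = 0.544). The adjustment over GAPDH and actin left out POU5F1 and the plant genes, and including them would make the adjusted p of GAPDH larger.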

How the data were processed

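Extra-embryonic RNA of 20 conceptuses, 10 SCNT Med and 10 SCNT Low, was compared on nylon cDNA arrays. Groups follow the donor line in the labels. The authors deposited, for every spot, the mean pixel intensity of the signal and of its local background from ImaGene, without subtraction or normalization, with marks for poor and empty spots. A second deposited table holds log2 values processed by the authors, whose differences between arrays equal those of the log2 signal (slope 1.00), so scale and direction are known. Its column medians lay between -0.157 and 0.0286 for these arrays, and the set of arrays on which probes were centred is unknown.

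Here the log2 signal was centred on each array's mean over 10184 cDNA probes. Of 10368 spots, 30 controls and 154 unnamed spots did not enter the tests. Probes were tied to 16 gene symbols by the study's primer list. lmFit and eBayes of limma 3.58.1 (R 4.3.3) gave the comparison, calls being Benjamini-Hochberg adjusted p under 0.10 over all cDNA probes. The program named in the methods, SMVar, was not available, and a model with a variance for each group served as an alternative. Tests of single values, read at an adjusted p of 0.05, permuted the array labels 100000 times, or used all permutations (exact enumeration) where a group had fewer than 10 arrays or labels stayed within sessions (Python 3.11.15, numpy 2.4.6, scipy 1.17.1, pandas 2.3.3, matplotlib 3.10.9). The fits and permutation tests were tested on simulated data.

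Named were the 16 genes, the reference genes with spots of their own, and the 5 probes with the smallest p on each side among those brighter than water in at least 1 group. The members and lists were chosen with earlier results of these data known. Alternatives were normexp with an offset of 50, quantile normalization, median centring, the authors' table, leaving out the dimmest 25% of probes, session as a block, single sessions, poor spots left out, each array left out, BC30 and BC250 left out, all 4 groups in 1 model, array weights, and thresholds of 0.05 and 0.20. The session block without session 3, the session block with array weights, the SD ratios and the 10 pairs of correlations with BIN3, C5orf13, MSH3 and PGAM5 were added after seeing the data. The quantification session was read from the files, adjoining days counting as 1 session. The number of arrays limits the precision.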

Additional observations from a re-analysis of the deposited data

Results flagged for a closer look

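Single arrays that stood far from the others of their group were looked for in 58 sets of 10 arrays, where the gap to the nearest array exceeded Dixon's 95% critical share of the range in 9. About 1 set in 20 does so by chance, or 2.9 here. BC192 had a PLIN2 level of 1.43, the highest of SCNT Med, and an EED level of -0.19, the lowest. BC122 had the highest DFFA level of SCNT Med, 0.73. BC256 had the lowest MSH3 level of SCNT Low, -0.96, and its highest GAPDH level, 4.66. The probe BF045704 stood at 3.13 in BC123, the highest of SCNT Med, and at -1.34 in BC257, the lowest of SCNT Low. BC30, at 1.06, and BC250, at 1.13, lay farthest from the mean profile of SCNT Med and SCNT Low. The differences without these arrays were 0.69 for PLIN2 without BC192, 0.36 for DFFA without BC122 1.495 for MSH3 without BC256 and 0.35 for EED without BC192.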

How the results depend on the processing

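No probe was called in 36 of the 38 alternatives, including every fit without 1 array. With all 4 groups in 1 model 1 probe was called, as with array weights (BF043585 and AW463538). The number of probes with an unadjusted p under 0.05 was 143 in session 2 only, with 3 and 5 arrays, and 354 to 675 when single arrays were left out, the highest without BC250. The difference of FN1 kept its direction in all 36 alternatives, from 1.11 to 1.49 without single arrays. The smallest of all was 0.96, with array weights and the session as a block. Values between -0.071 and 0.0927 for LHFPL2 and between -0.10 and 0.35 for EED without single arrays took either sign. LHFPL2 was also -0.0368 with poor spots left out and -0.0181 with array weights. EED was -0.00066 with quantile normalization, -0.12 with the session as a block (also without session 3), -0.0946 in session 1, -0.15 in session 2, -0.10 without BC30 and BC250, -0.0307 with array weights and -0.27 with weights and block. EIF2S3 was 0.0804 in session 1 and ASF1A 0.53 in session 2. Actin was 0.00726 with median centring, 0.0195 without session 3, 0.0415 in session 1 and -0.085 to 0.0918 without single arrays. GAPDH had an adjusted p under 0.05 without session 3 (-0.74, exact permutation adjusted p = 0.0358) and without any 1 of 6 arrays, with the adjustment over GAPDH and actin only. The difference in spread was -0.0142 without session 3, -0.0022 as a median absolute deviation, and -0.034 to 0.090 without single arrays, the lowest without BC30. The causes were not tested. The distance between the mean profiles was 0.25 to 0.28 without single arrays, with no permutation p under 0.05.

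No paired analysis was possible because the replicate numbers only count samples and pair none across the groups. Donor line and donor animal cannot be told apart, and of these groups only SCNT Low had arrays in session 3. Spots near the water spot, such as LHFPL2 and BF046158, limit what their differences can show.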
